A study of Mus musculus with 4 samples.

Results

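The immediate early response genes described here are Egr1, Egr2, Egr3, Fos, Fosl1, Fosl2, Jun, Junb, Ier2 and Ier3, chosen by gene name. All 10 were present among the 52327 gene names of the table, with 28 of its 160308 transcripts. RNA sequencing measured them in the mouse line 46C, embryonic stem cells with a GFP reporter inserted at Sox1. The 2 ESCs libraries came from control cells in 2i conditions, a medium whose inhibitors block MEK and GSK3, and the 2 rfISCs libraries from cells of the same line in PIF conditions, described in the labels as intermediate between rosette and formative stem cells. The labels do not spell out the components of PIF, and 1 cell line was used, so the line's own features are shared by both groups.

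Immediate early genes are transcribed within minutes of a growth factor or stress signal, without new protein synthesis, and their short-lived transcripts are then degraded. ERK activates ternary complex factors, which act with the serum response factor SRF at CArG boxes, and other kinases act through CREB at cyclic AMP response elements (CRE). The Egr genes encode zinc finger transcription factors, and Fos and Jun family proteins pair to form AP-1. Ier2 encodes a nuclear protein and Ier3 a regulator of cell survival. In embryonic stem cells ERK signalling, which the MEK inhibitor of 2i blocks, is needed to leave the naive state.

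The members share a compact gene structure. In the 9 members with reads, the transcript with most reads had at most 4 exons and a median of 2, against a median of 6 over 18769 genes, of which 39.3% had at most 4. Jun, Junb and Ier2 had 1 exon. The promoters of 6 members were matched by symbol in the RefSeq table of build GRCm38.p6. It gives windows of 250 bases before to 50 bases after an annotated start. Egr1, Egr3, Fosl1 and Ier2 had no window there, so their promoters were not searched. The windows of Egr2 and Junb, which rose, of Fos, which was not called, and of Ier3, which fell, are shown as examples of each outcome, with starts within 30 bases of the start of the transcript that carried most reads. Capitals mark matches to the CArG box, the CRE core TGACG and the TATA box TATAAA on either strand. The build used for the deposited table could not be settled, and none of its values were read by these coordinates.
Egr2, chr10:67537619-67537918, plus strand: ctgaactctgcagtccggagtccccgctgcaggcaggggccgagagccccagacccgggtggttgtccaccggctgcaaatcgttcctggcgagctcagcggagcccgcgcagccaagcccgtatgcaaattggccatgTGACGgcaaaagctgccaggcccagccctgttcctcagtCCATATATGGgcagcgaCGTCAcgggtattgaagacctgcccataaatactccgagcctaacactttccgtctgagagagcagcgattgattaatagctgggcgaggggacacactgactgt
Junb, chr8:84978699-84978998, minus strand: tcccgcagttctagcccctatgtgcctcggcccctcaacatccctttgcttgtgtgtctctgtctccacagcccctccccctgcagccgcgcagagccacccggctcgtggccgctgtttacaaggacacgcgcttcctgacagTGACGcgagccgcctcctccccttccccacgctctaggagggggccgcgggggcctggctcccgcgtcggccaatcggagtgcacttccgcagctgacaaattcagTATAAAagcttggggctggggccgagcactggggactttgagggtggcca
Fos, chr12:85473640-85473939, plus strand: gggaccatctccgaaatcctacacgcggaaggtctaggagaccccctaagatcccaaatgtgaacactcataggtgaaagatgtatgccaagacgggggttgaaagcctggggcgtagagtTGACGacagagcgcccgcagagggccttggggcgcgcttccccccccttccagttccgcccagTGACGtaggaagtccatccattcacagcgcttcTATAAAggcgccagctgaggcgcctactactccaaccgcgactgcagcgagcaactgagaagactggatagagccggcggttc
Ier3, chr17:35821463-35821762, plus strand: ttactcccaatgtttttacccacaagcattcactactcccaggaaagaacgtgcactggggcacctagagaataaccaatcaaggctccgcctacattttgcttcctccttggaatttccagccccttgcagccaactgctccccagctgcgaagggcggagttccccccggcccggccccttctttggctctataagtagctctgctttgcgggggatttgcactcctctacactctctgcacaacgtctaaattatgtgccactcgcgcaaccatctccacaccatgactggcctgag

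The Egr2 window held the CArG box CCATATATGG, whose first base lay 72 bases before the start, and a TGACG core on each strand. A CArG box was found in 1.63% of 32851 promoter windows, and among the members only in windows of Egr2, in 4 of its 5. The Egr2 windows that begin at 67537619, 67537620 and 67537680 overlap and held the same CCATATATGG, so they are not independent. The window that begins at 67537316 held a different box, CCTTTTTTGG. Counted by gene, 1 of the 6 members with a window had a CArG box, against 1.81% of 27025 genes. The search reached only 250 bases before a start. Sites farther upstream, in Fos or any other member, were not searched, so no match in a window does not mean that the gene lacks the element. Fos held 2 TGACG cores and a TATAAA, and Junb 1 of each. The TATAAA of Junb lay at the RefSeq start of its window. That start is 30 bases from the start of ENSMUST00000064922, which held all Junb counts. TGACG stood in 20.8% and TATAAA in 13.6% of all windows. Ier3 held no match to any motif searched. No member window held the AP-1 site TGANTCA (7.81% of all windows), the full CRE TGACGTCA (1.79%), which contains the TGACG core, the Egr site GCGTGGGCG (0.612%) or the Ets core CCGGAAG (8.86%). These matches describe letters in the windows and do not show that a factor was bound.

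Egr2 gained most, and the 2 Ier genes, which were the most abundant members, declined modestly. Of the 10 members 8 passed the filter on low counts, and edgeR's quasi-likelihood test called 3 higher in rfISCs (Egr2, Fosl2 and Junb) and 2 lower (Ier2 and Ier3). Fos, Jun and Egr1 did not pass, and Egr3 and Fosl1 did not reach the filter. Over all 16355 genes tested 53.7% were called, 27.3% higher and 26.4% lower. The members' 62.5% called is close to that background. Egr1 and Egr2 reached the filter through the rfISCs libraries alone, so they were tested because they were high there. The median log2 fold change was 0.71 over the 8 tested members and 0.24 over the 6 that reached the filter in both groups, against 0.00 for all genes. The groups did not overlap in 7 of the 8 tested members, against 77.7% of all tested genes.

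Whether the summed level of the 10 genes overlapped between the groups depended on the scaling. In TPM, a level per transcript length that allows genes to be compared, the sum was 116 and 106 in ESCs against 115 and 112 in rfISCs, and in TMM-scaled CPM it overlapped too. In CPM by library totals, without TMM, it did not overlap and was higher in rfISCs, at 127 and 114 against 136 and 132. The make-up of this sum differed, given here as a description with no test. Ier2 held 66.8% and 66.4% of it in ESCs and 55.0% and 57.2% in rfISCs, and Ier3 held 19.3% and 21.9% against 13.9% and 15.2%. Egr2 held 0% and 0.0848% in ESCs and 8.78% and 5.68% in rfISCs, and Junb 2.84% and 1.73% against 7.77% and 5.91%.

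**Figure D1:**
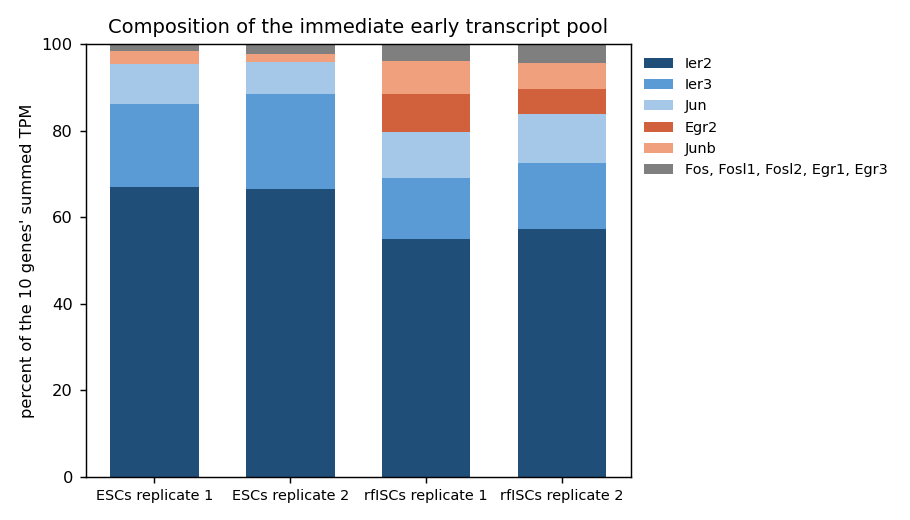
Percent of the summed TPM of the 10 immediate early genes (vertical axis) held by each gene in each of the 4 libraries (horizontal axis), as stacked bars. Ier2 held 66.8% and 66.4% in ESCs and 55.0% and 57.2% in rfISCs, where Egr2 and Junb took larger shares.

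In ESCs the order of levels was Ier2 (74.1 ± 5.06 TPM, mean ± SD, n = 2 libraries), Ier3 (22.9 ± 0.552), Jun (9.34 ± 2.00), Junb (2.57 ± 1.04), Fos (1.72 ± 0.417), Fosl2 (0.370 ± 0.0424), Egr1 (0.17 in both libraries) and Egr2 (0 and 0.09), with Egr3 and Fosl1 at 0. Junb and Fos overlapped, as did Egr2 with the genes at 0. In rfISCs Egr2 stood at 8.26 ± 2.67 TPM, behind Ier2 (63.9 ± 0.488), Ier3 (16.5 ± 0.700) and Jun (12.6 ± 0.382). It overlapped with Junb (7.80 ± 1.65), which was followed by Fos (2.47 ± 0.445), Fosl2 (1.39 in both), Fosl1 (0.52 ± 0.0566) and Egr1 (0.365 ± 0.0354). By mean TPM over all 4 libraries, Ier2 stood above 87.8% of tested genes, Jun above 50.7%, Egr2 above 33.5% and Egr1 above 2.89%. For Egr2 this mean joins 0 and 0.09 TPM in ESCs with 8.26 TPM in rfISCs, so its rank describes neither group.

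**Figure D2:**
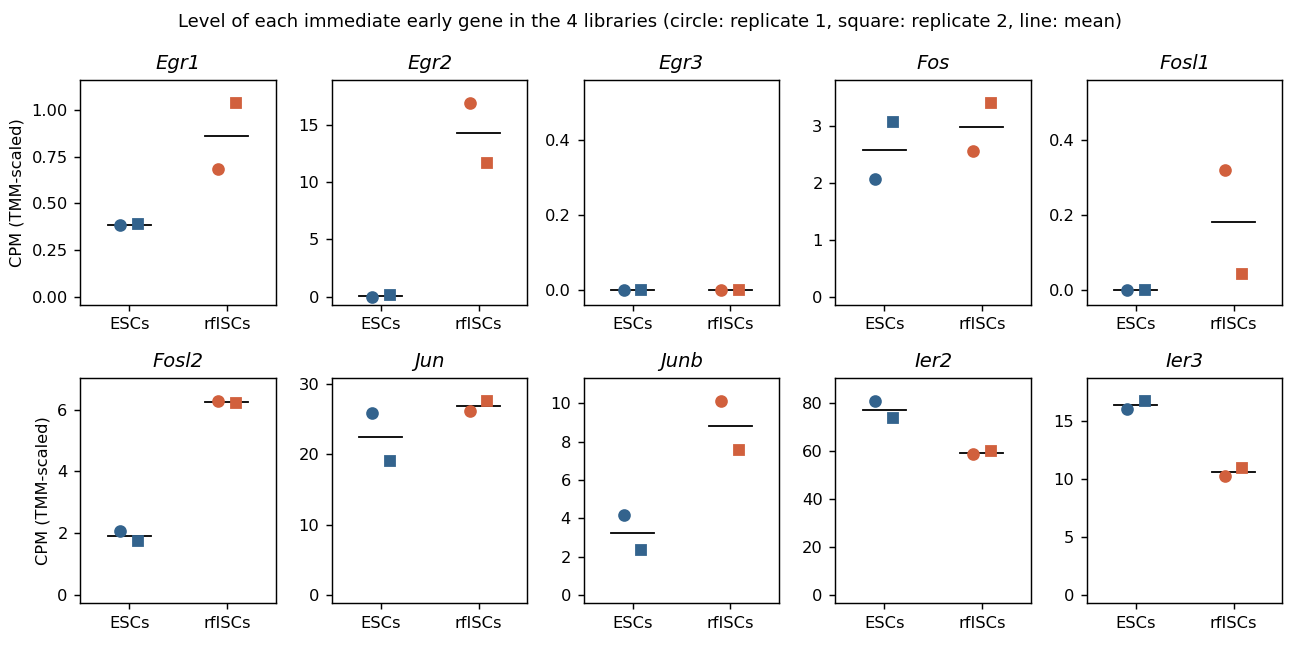
Level of each of the 10 immediate early genes (vertical axis, CPM as TMM-scaled counts) in the ESCs and rfISCs groups, with a circle for replicate 1, a square for replicate 2 and a line at the mean of 2 libraries. Egr2, Fosl2 and Junb lie higher and Ier2 and Ier3 lower in both rfISCs libraries, while the groups overlap for Fos.

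Among the Egr genes, Egr2 rose to at least 11.7 CPM in rfISCs, and no other exceeded 1.04 CPM in any library. Egr2, a zinc finger factor known for its roles in hindbrain patterning and in myelinating Schwann cells, gave 0 counts in ESCs replicate 1 and 4 in replicate 2. The rfISCs libraries gave 369 and 282. In CPM (counts scaled to TMM-corrected library size), this was 0 and 0.194 against 16.9 and 11.7. Both rfISCs libraries were far above both ESCs libraries. The ratio of the summed counts was 138 with an exact 95% counting interval of 53.5 to 507 (edgeR log2 fold change 7.04, SE 0.491, adjusted p = 3.34e-06). All 4 ESCs counts were in replicate 2. Without ESCs replicate 1 the log2 fold change was 6.15; without replicate 2 the fitted log2 fold change was 11.3, which depends on the prior count, and against a floor of 3 counts in the library left, Egr2 was at least 86.5-fold higher in rfISCs. On log2(TPM + 1), which understates changes from low levels, it was 3.12 (limma adjusted p = 0.00240). The count filter was met by the rfISCs libraries alone, so it entered the test by being high there. Intervals and floors cover counting error only.

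The reads of Egr2 were divided over 4 of its 7 transcripts. ENSMUST00000048289, a coding transcript of 2 exons and 2965 bases that starts at the promoter window shown above, held all 4 ESCs counts and 93.4% and 84.6% of the Egr2 counts in the rfISCs libraries. ENSMUST00000127820 held 1.54% and 11.2%, so its part differed between rfISCs libraries, and ENSMUST00000145754 and ENSMUST00000105438 held at most 4.20% of the counts. In TPM ENSMUST00000145754, of 773 bases, held 18.4% and 7.22% of Egr2 in rfISCs, as few reads give a short transcript a high TPM. In the authors' deposited table ENSMUST00000048289 had a fold of 129 (adjusted p = 6.59e-14) and ENSMUST00000127820 a fold of 87.9 (adjusted p = 0.0330). These were the 2 member transcripts that the authors' deposited table marked as significant, which required at least a 5-fold change, as 2.33% of all its transcripts were. The main transcripts of Fosl2, Junb, Ier2 and Ier3 changed by less than that limit. Their deposited folds were 3.36, 2.80, 0.794 and 0.668, and the authors' adjusted p was under 0.05 for each (0.000168, 0.00953, 0.00394 and 0.0281). ENSMUST00000127820 had no counts in ESCs and 5.7 and 31.5 in rfISCs, so its fold is not a ratio of measured levels.

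Egr1, widely used as a readout of ERK activity, was near the detection limit in both groups. It had 7 and 8 counts in ESCs and 15 and 25 in rfISCs, or 0.382 and 0.389 CPM against 0.686 and 1.04 CPM. The rfISCs libraries were the higher ones without overlap, but the difference did not pass (log2 fold change 1.15, SE 0.550, edgeR adjusted p = 0.107). The ratio of counts was 2.26 with an exact 95% interval of 1.22 to 4.40. In rfISCs replicate 2, 66.0% of the Egr1 counts were assigned to ENSMUST00000064795, which had none in the other libraries, where ENSMUST00000165033 took all. Egr1 reached the count filter through the rfISCs libraries alone.

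Egr3 had 0 counts in every library over its 4 transcripts, which allows up to 0.164 CPM in the shallowest library and 0.124 CPM in the deepest. The fourth family gene, Egr4, had 2 counts, both in rfISCs replicate 2. Of the summed TPM of the 4 Egr genes, Egr2 held 96.8% and 93.4% in rfISCs, where the sum was 10.5 and 6.82 TPM, against 0.17 and 0.26 TPM in ESCs. Nab1 and Nab2, which encode corepressors that bind Egr proteins, did not pass (edgeR adjusted p = 0.205 and 0.142). Nab1 had a mean of 9.70 ± 0.175 CPM in ESCs and 11.4 ± 0.0844 in rfISCs, and Nab2 9.36 ± 0.111 and 11.4 ± 0.172. Of the 5 genes tested in a list of Egr corepressors and related zinc finger genes 1 rose, 1 fell and 3 did not pass, with a median log2 fold change of 0.24. The gene that rose had a mean under 1 CPM, below the limit for naming. The fall was that of Klf2, a Krüppel-like factor gene, which dropped 2.31-fold from 214 ± 8.93 to 92.5 ± 12.1 CPM (edgeR adjusted p = 3.92e-06). Klf2 is also among the naive markers counted below.

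In the Fos family the late-acting member Fosl2 rose while Fos itself did not pass. Fosl2 encodes Fra-2, an AP-1 subunit without the strong activation domain of Fos. It had 38 and 36 counts in ESCs and 137 and 150 in rfISCs, or 2.07 and 1.75 CPM against 6.26 and 6.22 CPM. The replicates of each group lay close together and the groups were well apart, a 3.27-fold rise (log2 fold change 1.71, SE 0.241, edgeR adjusted p = 0.000296). It was below the TPM filter of the limma fit, and in the limma fit on log2(TPM + 1) without a filter its log2 fold change was 0.80 (adjusted p = 0.0311). In each library at least 99.2% of its counts fell on the coding transcript ENSMUST00000031017.

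Fos, the prototype of the family, had 38 and 63 counts in ESCs and 56 and 82 in rfISCs, or 2.07 and 3.06 CPM against 2.56 and 3.40 CPM. The groups overlapped, and replicate 2 was the higher library in both (log2 fold change 0.21, SE 0.318, edgeR adjusted p = 0.604). The direction turned to -0.04 without ESCs replicate 1 and to -0.01 without rfISCs replicate 2. The transcript ENSMUST00000021674, whose start is the Fos window shown above, held 96.7% or more of the counts in every library. In TPM the 631-base ENSMUST00000134311 held 14.4% and 12.2% of Fos in rfISCs, from 1.87 and 2.32 counts.

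Fosl1, which encodes Fra-1, an AP-1 subunit induced by sustained ERK activity in many cells, had no counts in ESCs and 7.29 and 1 estimated counts in rfISCs. Set against 3 counts for the whole ESCs group, used as a floor, it was at least 2.26-fold higher, and the exact 95% counting interval of the ratio had a lower limit of 1.44. This rests on rfISCs replicate 1: without it 1 count is left, under the floor, and no fold can be given. Fosl1 did not reach the count filter; without a filter edgeR did not call it (adjusted p = 0.181), and limma on log2(TPM + 1) did (log2 fold change 0.60, adjusted p = 0.0175). In rfISCs replicate 1, 83.0% of these were on the coding transcript ENSMUST00000025850 and 17.0% on ENSMUST00000235958, and the count of replicate 2 was on ENSMUST00000236774. Its 0.56 and 0.48 TPM rest on the latter 2 in part, which at 496 and 357 bases give few reads a high TPM. Fosb, the fourth family gene and no member, had 6 and 3 counts in ESCs and 13 and 16 in rfISCs (edgeR adjusted p = 0.0972). The summed TPM of the 4 Fos family genes was 1.94 and 2.48 in ESCs and 4.34 and 4.92 in rfISCs. Fos held 73.2% and 81.0% of it in ESCs and 49.5% and 56.5% in rfISCs, where Fosl2 held 32.0% and 28.3%.

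Of the Jun genes, Junb rose and Jun did not pass. Junb encodes a Jun protein that activates transcription more weakly than Jun and often opposes it. It had 77 and 48 counts in ESCs and 221 and 182 in rfISCs, or 4.20 and 2.33 CPM against 10.1 and 7.54 CPM. Replicate 1 was the higher library in both groups, and both rfISCs libraries were above both ESCs libraries. The rise was 2.72-fold (log2 fold change 1.44, SE 0.285, edgeR adjusted p = 0.00228). It did not pass with limma on log2(TPM + 1) when no filter was applied (adjusted p = 0.0569), and passed with the filter (0.0189).

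Jun, the strongest activator of the family, had 473 and 393 counts in ESCs and 572 and 664 in rfISCs, or 25.8 and 19.1 CPM against 26.2 and 27.5 CPM. The groups did not overlap, but ESCs replicate 1 lay next to the rfISCs libraries (log2 fold change 0.26, SE 0.139, edgeR adjusted p = 0.143). Without ESCs replicate 1 Jun was called higher (log2 fold change 0.49, edgeR adjusted p = 0.000714), and without ESCs replicate 2 the log2 fold change was 0.06. Jund, the growth-restraining family gene that is no member, held 86.4% and 87.4% of the summed TPM of the 3 Jun genes in ESCs and 81.5% and 75.6% in rfISCs. Its 103 and 78.2 CPM in ESCs overlapped with 96.3 and 62.4 CPM in rfISCs (edgeR adjusted p = 0.410), and it was called lower without ESCs replicate 2 and without rfISCs replicate 1 (edgeR adjusted p = 9.89e-07 and 0.00576). Junb held 3.19% and 2.37% of that sum in ESCs and 7.79% and 8.30% in rfISCs.

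The Ier genes fell. Ier2 had 1477 and 1512 counts in ESCs and 1280 and 1441 in rfISCs, or 80.6 and 73.5 CPM against 58.5 and 59.7 CPM. Both rfISCs libraries were below both ESCs libraries, and the fall was 1.30-fold (log2 fold change -0.38, SE 0.0753, edgeR adjusted p = 0.00228). On log2(TPM + 1) its log2 fold change was -0.21 and did not pass with limma (adjusted p = 0.0809). That scale moved the median of all genes to 0.14. Relative to this median, a shift shared by all genes, Ier2 stood at -0.35, and that value was not tested. The fit on log2(TPM + 1) also called 66.3% of its changed genes higher, against 50.9% with TMM and 59.2% with library totals.

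Ier3, a stress-induced and ERK-binding survival gene, had 295 and 344 counts in ESCs and 224 and 265 in rfISCs, or 16.1 and 16.7 CPM against 10.2 and 10.98 CPM. The groups were apart and replicates close. The fall was 1.54-fold (log2 fold change -0.63, SE 0.134, edgeR adjusted p = 0.00343), and it passed under all 13 alternatives, with log2 fold changes from -0.68 to -0.44. Ier2 and Ier3 were each represented by 1 transcript.

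**Figure D3:**
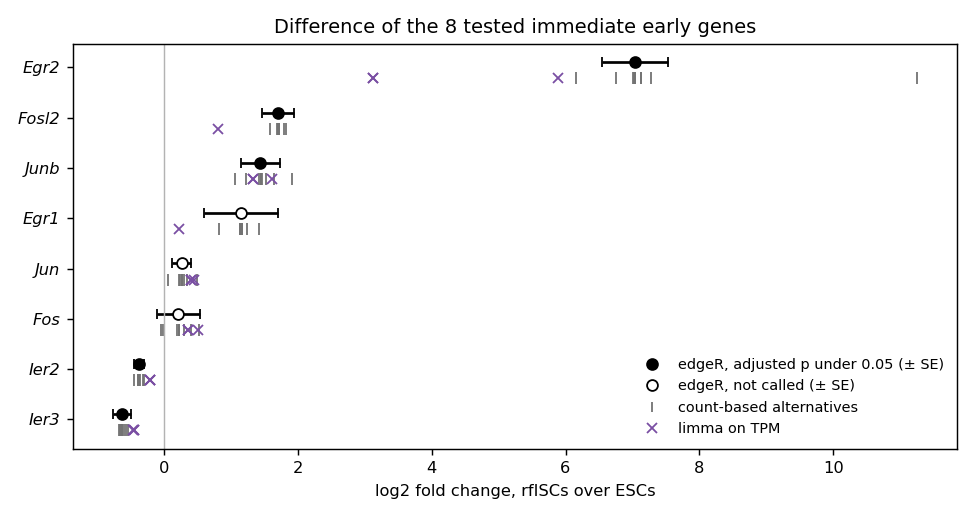
Log2 fold change of rfISCs over ESCs (horizontal axis) for the 8 tested members, with the edgeR estimate and its SE as a filled circle where the adjusted p was under 0.05 and an open circle otherwise. Grey ticks are the count-based alternatives and crosses limma on TPM; the tick of Egr2 at 11.3 comes from leaving out the ESCs library with all its ESCs counts.

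Fitted transcript by transcript, none of the 7 member transcripts tested was called by edgeR's quasi-likelihood test, in which 3.68% of 50163 transcripts were called. Of these 7, 5 had an unadjusted p under 0.05, as had 22.8% of all transcripts tested, and DESeq2 called 5, against 22.6% of all. They were the main transcripts of Egr2, Fosl2, Junb, Ier2 and Ier3, with log2 fold changes of 6.94, 1.73, 1.47, -0.35 and -0.59 in edgeR. Estimated counts of overlapping transcripts carry an assignment error that 2 libraries a group show only in part.

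Genes that act upstream of the members included rises and falls. For the counts of this and every other list, the background is all 16355 genes tested, of which 27.3% rose and 26.4% fell. Both directions were thus common among all genes and are not particular to a list that holds both. Of 22 tested genes for SRF, its partners, CREB and the kinases upstream 11 rose, 4 fell and 7 did not pass, with a median log2 fold change of 0.25. Srf itself had 29.6 and 22.9 CPM in ESCs and 53.4 and 53.3 CPM in rfISCs, a 2.04-fold rise (edgeR adjusted p = 7.42e-05). Mapkapk2, a kinase downstream of p38, rose 1.94-fold from 19.1 ± 1.17 to 37.1 ± 2.50 CPM. Elk1, a ternary complex factor that ERK phosphorylates, fell 1.39-fold from 31.6 ± 3.06 to 22.7 ± 2.45 CPM, a call lost without rfISCs replicate 1 (edgeR adjusted p = 0.0575). Rps6ka2, a kinase that ERK activates, fell 1.38-fold (edgeR adjusted p = 0.00102). Neither fall passed with limma on TPM (adjusted p = 0.177 and 0.103). In that fit 12 of 21 rose and 0 fell, and without rfISCs replicate 1 edgeR called 2 falls.

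Other immediate early and early response genes went both ways too. Of 42 tested 15 rose, 15 fell and 12 did not pass, with a median log2 fold change of -0.10. Nr4a3, a nuclear receptor gene, had no counts in either ESCs library. The rfISCs counts of 122 and 145 put it at least 75.3-fold higher than a floor of 3 counts in the whole ESCs group. Like Egr2 it passed the filter through rfISCs alone. Ccn1, which encodes a secreted matrix protein, rose 8.45-fold, from 2.95 and 2.67 CPM to 23.1 and 24.3 CPM. Gadd45b fell 4.76-fold, from 50.8 and 37.6 CPM to 9.56 and 8.995 CPM, and the stress factor gene Atf3 fell 3.62-fold, from 12.7 and 13.0 CPM to 3.66 and 3.44 CPM. The edgeR adjusted p of these 4 genes lay between 4.44e-07 and 2.13e-05.

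**Figure D4:**
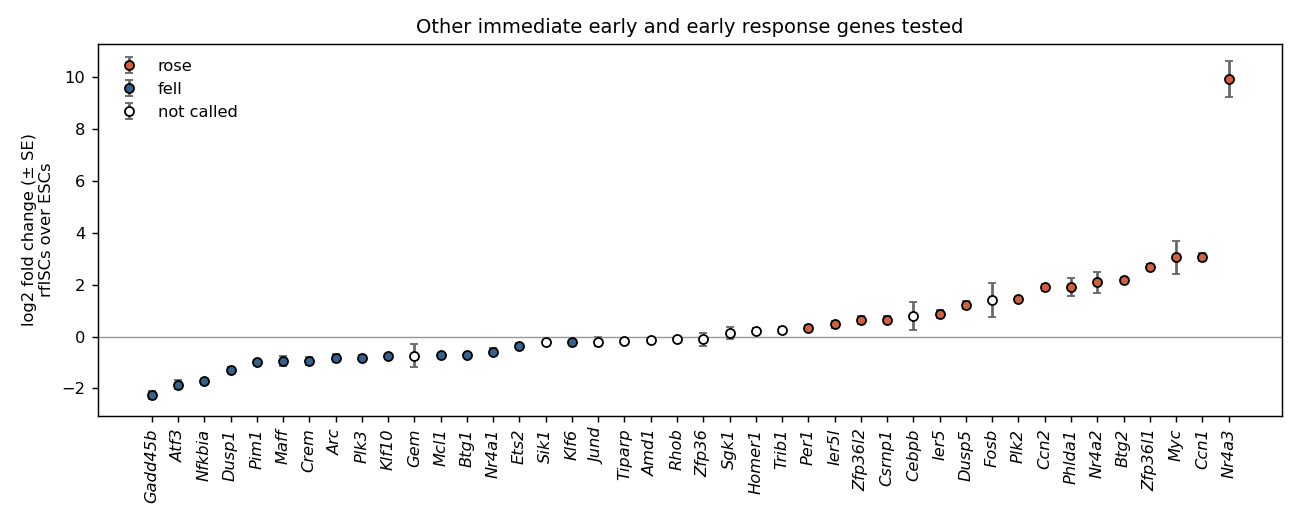
Log2 fold change of rfISCs over ESCs with its SE (vertical axis) for the 42 tested immediate early and early response genes that are not members (horizontal axis, in order of the change), coloured by the edgeR call. Rises and falls number 15 each; the fitted value of Nr4a3 has no ESCs counts behind it and depends on the prior count.

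Among the partners and cofactors of AP-1, 4 of 18 tested genes rose, 9 fell and 5 did not pass, with a median log2 fold change of -0.28. Jdp2, which encodes a repressor that pairs with Jun proteins, fell 5.50-fold, from 41.1 and 41.3 CPM to 7.86 and 7.13 CPM (edgeR adjusted p = 2.31e-07). Mafk, a small Maf gene, rose 2.06-fold to 11.1 ± 2.00 CPM. With limma on TPM 2 rose and 7 fell of 15.

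Genes known as AP-1 or Egr targets were split, with 9 of 29 tested higher, 11 lower and 9 not passing, and a median log2 fold change of 0.03. Id3, an inhibitor of bHLH factors, rose 31.3-fold, from 1.64 and 0.583 CPM to 31.3 and 36.9 CPM; its log2 fold change was 4.97, or 5.85 and 4.38 when ESCs replicates 1 and 2 were left out in turn. Mmp2, a matrix protease gene, rose 13.2-fold, from 2.92 ± 0.815 to 39.1 ± 2.22 CPM. Pdgfa, a growth factor gene, fell 4.32-fold from 59.3 ± 7.87 CPM. With library totals the split was 11 higher and 9 lower.

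Of 15 tested ERK feedback targets, a list that shares Egr1, Fosl1 and Ier3 with the 10 genes, 8 rose and 4 fell (3 did not pass; median log2 fold change 0.53). Phlda1, an ERK-induced gene, rose 3.78-fold from 0.919 ± 0.143 to 3.50 ± 0.0275 CPM, and Dusp5, a phosphatase gene for nuclear ERK, rose 2.33-fold from 8.42 ± 1.74 to 19.6 ± 0.127 CPM. Il17rd, an inhibitor of FGF signalling, fell 2.70-fold from 32.4 ± 0.255 CPM, and the Ets factor gene Etv1 fell 1.78-fold, a call lost without rfISCs replicate 2 (edgeR adjusted p = 0.0612). With limma on TPM 8 rose and 2 fell of 14.

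Transcripts of immediate early genes are degraded through AU-rich elements. Of 17 tested genes for proteins that bind such elements or act in deadenylation 6 rose, 5 fell and 6 did not pass. Their median log2 fold change was 0.05. The list does not separate factors that promote decay from binders that do not. Zfp36l1, whose protein binds such elements and recruits deadenylases, rose 6.50-fold, from 17.0 and 14.1 CPM to 92.5 and 109 CPM (edgeR adjusted p = 1.89e-07), and its relative Zfp36l2 rose 1.56-fold. Auh, named for AU-rich RNA binding, fell 1.57-fold and Cnot6l, a deadenylase gene, fell 1.42-fold (edgeR adjusted p = 0.000942 and 0.00218), and neither passed with limma on TPM (adjusted p = 0.146 and 0.140). In that fit 7 rose and 1 fell.

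Immediate early genes respond to handling, and heat shock and dissociation stress genes moved in both directions, with 6 of 16 higher, 7 lower and 3 not passing. The inducible Hsp70 genes Hspa1b and Hspa1a, near-identical copies between which reads may be divided either way, rose to 17.7 ± 0.0295 and 5.59 ± 0.658 CPM, by 3.27-fold and 2.63-fold, and are uncertain. Trib3 and Gadd45b fell 4.43-fold and 4.76-fold. The list's summed level was 13692 and 13406 CPM in ESCs and 11536 and 11683 CPM in rfISCs. Of 14 fibroblast and feeder markers 8 were tested and 5 rose, with summed levels of 9.44 and 14.8 CPM in ESCs and 32.1 and 27.4 CPM in rfISCs; Lum, Fap and S100a4 were at 0 in all libraries. Acta2 gave 129 and 84.5 counts in rfISCs but none in ESCs, which is a rise of at least 60.4-fold. Acta2 thus passed the filter through rfISCs alone and was tested because it was high there. Col1a1 rose 10.7-fold to 3.61 ± 0.0574 CPM (log2 fold change 3.42, and 4.41 without ESCs replicate 2). Pdgfra, Pdgfrb and Thy1 were tested and did not pass (edgeR adjusted p = 0.0576, 0.244 and 0.265). Without ESCs replicate 2 edgeR called 9 fibroblast markers higher, and with Ensembl transcripts alone 3. The part of stress or of such cells in the members' values was not tested, and fewer cells expressing a gene cannot be told apart from less RNA per cell in these bulk libraries.

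Markers of the naive state and of later epiblast states separated the 2 groups. All 11 naive markers fell and all 10 formative and primed epiblast markers rose, among them Esrrb, Nanog, Otx2 and Dnmt3b, with changes of 4.78-fold and 3.97-fold down and 5.44-fold and 5.66-fold up. The largest moves in these lists were falls of Tbx3 and Tdh and rises of Pou3f1 and Fgf15. The lists pool formative with primed markers and hold no rosette set, so the labelled position between rosette and formative cells was not tested. They were also chosen with earlier results of these data known. Libraries held 19243701 to 23780989 counts. Separate cultures are not mentioned for the replicates, and the p-values therefore reflect library-to-library spread that may be technical. For any single gene, exact permutation of 2 against 2 libraries gives a two-sided p of 0.333 at best, and each call rests on the model fitted across all genes.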

How the data were processed

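The 4 libraries were read from a transcript table with estimated counts and TPM deposited by the authors, per the file headers. The deposited estimated counts are unscaled and not always whole. The authors also deposited a ratio of rfISCs to ESCs (fold), its log2, a p-value with its adjusted value, and the transcript length. Bowtie 0.12.2 and a mouse build are named, without a role, per the submitters' processing notes; the quantification tool, annotation and test are not given in the sources used here. Of 142434 Ensembl transcript IDs 97.1% were in GENCODE M21 (GRCm38), which gave exon numbers and biotypes. The members had no assembled transcripts.

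Counts were summed per gene name and rounded. Transcripts without a gene name, 1.22% to 1.62% of the counts, were left out. Genes were kept by filterByExpr (minimum count 10, here 0.472 CPM in 2 libraries) and tested with edgeR 4.0.16 (R 4.3.3), quasi-likelihood, TMM, group as the 1 term, and Benjamini-Hochberg adjusted p under 0.05 over all genes. The SE is the log2 fold change divided by the square root of F. Replicates differed by more than sampling noise (chi-square per degree of freedom 6.71 in ESCs and 4.55 in rfISCs over genes with at least 20 counts). Alternatives were DESeq2 1.42.0, limma 3.58.1 on TPM with pseudocounts of 1 and 0.1 (genes of at least 1 TPM, or all), other scalings, no filter, a replicate block, each library left out and Ensembl transcripts alone. The fits were tested on simulated data. Strand use in counting is not given, so overlapping genes are uncertain. The members and lists were chosen with earlier results of these data known. The genes named are all members, 3 family relatives, 4 state markers and, of each list, up to 4 called genes of at least 1 CPM, namely the top 2 rises and the top 2 falls. Of these, 2 genes this rule names are not reported here. Nab1, Nab2 and the markers at 0 were added after their values were seen.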

Additional observations from a re-analysis of the deposited data

How the results depend on the processing

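The directions of Egr2, Fosl2, Junb, Ier2, Ier3, Jun and Egr1 held under every alternative that gave a value. That of Fos turned when 1 library was left out, with log2 fold changes of -0.0389 (without ESCs replicate 1) to 0.524 (without ESCs replicate 2) at gene level and -0.0641 to 0.530 for its main transcript. The number of members called lower was 1 in place of 2 with limma on TPM under either pseudocount and without a filter, since Ier2 did not pass; the cause was not tested. Limma on TPM without a filter called 5219 genes in place of 8783. Leaving out 1 library gave 3 to 4 members called higher and 2 called lower. With a replicate block 8824 genes were called, and no call of a member changed; the labels do not say that a number marks a shared batch, and the correlation of same-numbered deviations was 0.00103. The transcript fit depended most on the tool: edgeR called 1845 transcripts and DESeq2 11347, with 0 and 5 of the members. Without a filter edgeR called 1 member transcript, that of Egr2. With the replicate block edgeR called 0 transcripts (8611 at an unadjusted p under 0.05), and without 1 library 0 as well (8924 to 10501). Counts limit Egr1, Egr3 and Fosl1, which had at most 25 counts in any library; limma on TPM without a filter called Fosl1 higher (adjusted p = 0.0175) and did not call Junb.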
